A study of Mus musculus with 8 samples.

Results

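A set of 9 genes that beta cells use to sense and metabolise glucose were followed: Slc2a2, G6pc2, Hadh, Slc30a8, Abcc8, Kcnj11, Trpm5, Glp1r and Ucn3. They were chosen by name, and every probe set annotated with exactly 1 of these symbols was taken, which gave 15 probe sets, all bright enough on at least 2 arrays to be tested. These 9 genes are among 16396 genes tested. Where a gene had several probe sets, the brightest over the 8 arrays stands for it below, and the others are given beside it. Intensities are the authors' deposited probe set values on a linear scale, and differences are on the log2(intensity + 2.155) scale, which understates the change of dim probe sets. An intensity depends on the probe set, so levels are compared between arrays and never between genes.

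All islets came from NOD.Scid hosts, a strain prone to autoimmunity in which no T or B cells mature. Diabetogenic mice were injected with BDC2.5 transgenic CD4+ T cells, which recognise a beta cell antigen, and their islets were taken on days 3, 4 and 8. Protected mice were given the same cells together with 2 injections of a monoclonal antibody against IFN-γ, one on the eve of the transfer and the other 2 days later, and were sampled on days 3, 4, 5 and 8. The untreated mice of day 0 got neither. Each array carried laser-captured islets pooled from 5 mice, and no arm has a second array on any day, so no value below has a replicate. The labels name no control antibody for the diabetogenic arm, so antibody injection and neutralised IFN-γ cannot be told apart.

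In the beta cell, glucose enters through a transporter, is phosphorylated and is burnt in mitochondria. The ATP formed closes a potassium channel, the membrane depolarises, calcium enters and insulin granules are released. Hormone receptors and local peptides then raise or lower that release. The genes followed here sit at several points of that chain.

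The arrays themselves differed. The untreated and day 3 arrays were alike in bright signal, with a 99th percentile of intensity of 89.5 (diabetogenic), 86.6 (protected) and 94.9 (untreated). In diabetogenic islets that percentile was 25.6 on day 4 and 68.2 on day 8, and in protected islets it was 67.0, 90.8 and 85.2 on days 4, 5 and 8. The 18 spiked control probe sets set the 5 later arrays apart, with medians of 551 to 1712 there, against at most 2.29 on the untreated and day 3 arrays. The ratio of 3′ to 5′ signal for Actb was 5.54 (diabetogenic) and 5.01 (protected) on day 3, 2.25 to 24.2 on the later arrays and 1.86 on the untreated one. For Gapdh it was 9.11 and 8.49 on day 3, 2.78 to 19.0 on the later arrays and 5.14 on the untreated one. The day 3 arrays thus matched the untreated one in bright signal but not in this ratio. Ins2 lay between 3409 and 6359 on all 8 arrays, also on the dimmest one, so it alone does not show that the captured tissue was alike. Acinar cell markers summed to 100 on the diabetogenic and 2202 on the protected array of day 4, against 1119 on the untreated array. On day 3 they summed to 1042 and 1025. Alpha cell markers summed to 140 (diabetogenic) and 1469 (protected) on day 4, against 5065 untreated. Leukocyte markers, of which 8 of 9 were tested, summed to 133 to 1276 on the diabetogenic arrays, 241 to 1457 on the protected arrays and 46.0 on the untreated array. Csf1r made up most of that sum on the later arrays (114 and 1067 on diabetogenic days 4 and 8), and Ptprc, the pan-leukocyte marker, was 2.74 on the diabetogenic array of day 4 and 5.42 on the untreated one. The part that these differences play in any result below was not tested.

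Of the 9 genes, 7 had an intensity of at least 50 in untreated islets, and Kcnj11 and Glp1r did not. On day 3, Slc2a2 and Hadh were at least 2-fold below the untreated level in both arms, and Slc30a8 and G6pc2 lay close to that mark. Abcc8, Trpm5 and Ucn3 kept at least 75.4% of their untreated intensity on day 3. All 7 were at least 2-fold lower on each of the 5 later arrays. That was so for 5.86% of all genes tested and for 40.4% of the 718 genes that also stood at 50 or more on the untreated array, a set picked on the untreated value itself. Of the 7 genes, 5 and 3 were below the array median on days 4 and 8 in diabetogenic islets, and 1, 0 and 1 on days 4, 5 and 8 in protected islets. A percent of untreated from such a value says only that it was low. No difference of any of the 9 genes passed an adjusted p of 0.05 in limma in any comparison as designed. In pooled islets, fewer beta cells and less RNA per beta cell cannot be told apart.

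**Figure D1:**
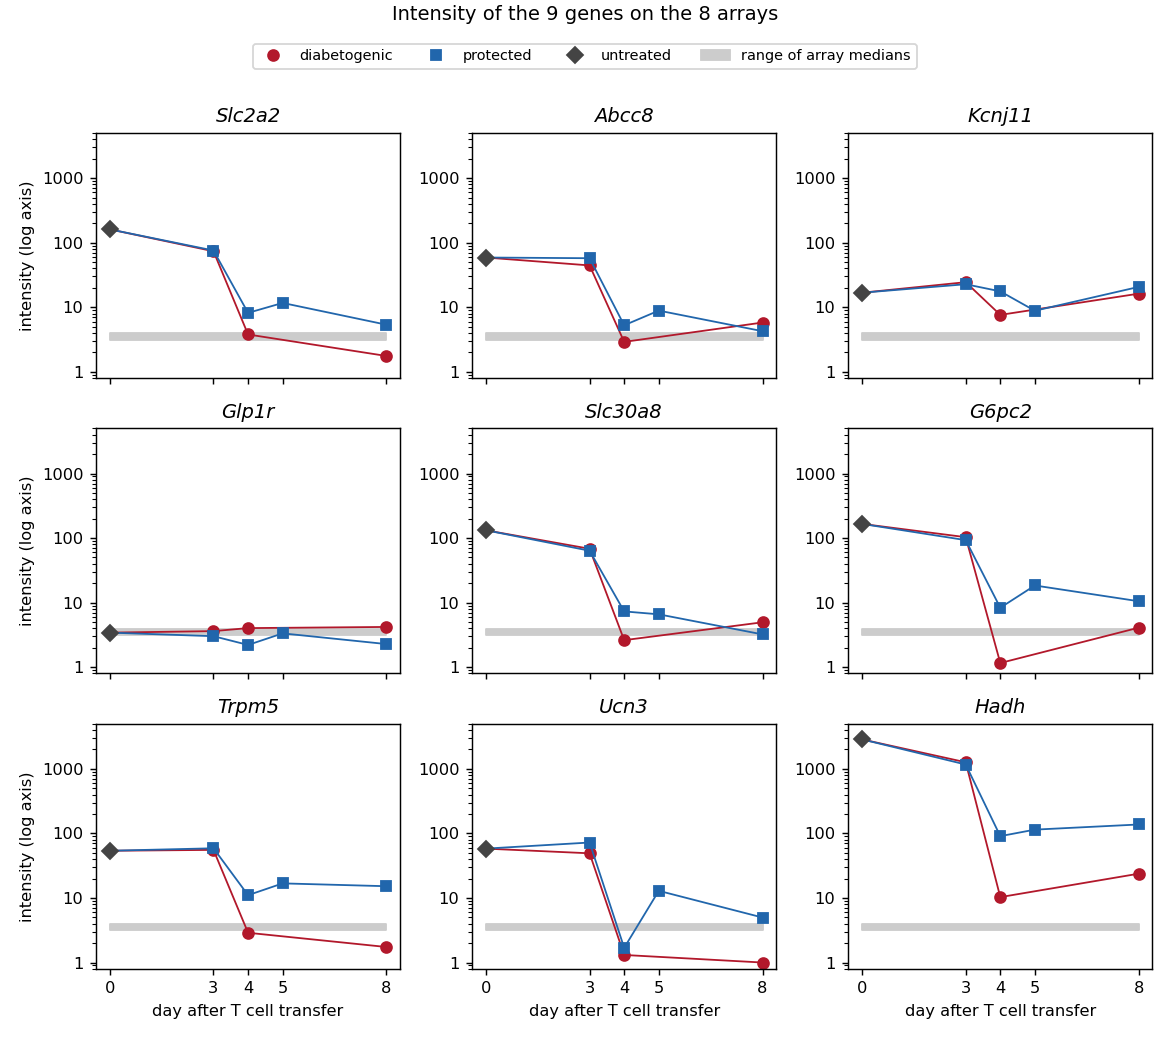
Intensity (log axis) of the brightest probe set of each gene against day after T cell transfer, for the 3 diabetogenic arrays, the 4 protected arrays and the untreated array at day 0, with the range of the array medians in grey. Each point is 1 array of 5 pooled mice. Slc2a2 stands at 73.7 and 75.8 on day 3, against 161 untreated, and Glp1r stays near the array median throughout.

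Slc2a2 encodes GLUT2, the glucose transporter of the mouse beta cell surface. It stood at 73.7 on day 3, 3.79 on day 4 and 1.76 on day 8 in diabetogenic islets, and at 75.8 on day 3, 8.19 on day 4, 11.7 on day 5 and 5.37 on day 8 in protected islets, against 161 in untreated islets. Every injected array was thus below the untreated one, and both day 3 arrays lay at about the same level, 45.8% of untreated in the diabetogenic arm and 47.0% in the protected arm. On day 8 the diabetogenic array was below its array median, where no level can be read, and the protected array held 3.33% of the untreated intensity. The day 3 arrays of both arms together differed from untreated by -1.09 ± 0.19 (SE, log2; limma unadjusted p 0.00158, adjusted p 0.236).

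G6pc2 encodes the islet glucose-6-phosphatase catalytic subunit, which turns glucose-6-phosphate back into glucose and so sets the threshold for insulin secretion. It stood at 103 on day 3, 1.16 on day 4 and 4.09 on day 8 in diabetogenic islets, and at 92.9, 8.33, 18.4 and 10.5 on days 3, 4, 5 and 8 in protected islets, against 166 in untreated islets. Here too no injected array reached the untreated level. The diabetogenic array of day 4 was below its array median. The day 3 difference was -0.75 ± 0.20 (SE, log2; limma unadjusted p 0.0124, adjusted p 0.342).

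Hadh encodes short-chain 3-hydroxyacyl-CoA dehydrogenase, a mitochondrial enzyme of fatty acid oxidation that also restrains glutamate dehydrogenase, and its loss in people causes excess insulin secretion. It stood at 1265 on day 3, 10.3 on day 4 and 23.8 on day 8 in diabetogenic islets, and at 1167, 90.7, 114 and 138 on days 3, 4, 5 and 8 in protected islets, against 2864 in untreated islets. On day 3 the arms lay together at 44.2% of untreated (diabetogenic) and 40.8% (protected). From day 4 all 3 protected arrays were above both diabetogenic arrays. The 2 dimmer Hadh probe sets were lower on day 3 as well: the first read 73.0 in diabetogenic and 65.6 in protected islets against 144.8 untreated, and the second 45.4 and 50.2 against 81.5. For the brightest probe set the day 3 difference was -1.24 ± 0.79 (SE, log2; limma adjusted p 0.575), a wide error that limma takes largely from the spread of other very bright genes. Fitted as probe sets in their own right, the dimmer pair differed by -1.04 ± 0.19 and -0.74 ± 0.18 (SE, log2), with limma adjusted p of 0.252 and 0.328.

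Slc30a8 encodes ZnT8, which loads zinc into insulin granules. It stood at 68.3 on day 3, 2.62 on day 4 and 4.96 on day 8 in diabetogenic islets, and at 63.7, 7.31, 6.59 and 3.22 on days 3, 4, 5 and 8 in protected islets, against 132 in untreated islets. Its day 3 arrays held 51.7% (diabetogenic) and 48.2% (protected) of the untreated intensity, so 1 array lay just above and 1 just below 50%. The day 3 difference was -0.98 ± 0.18 (SE, log2; limma unadjusted p 0.00239, adjusted p 0.261). The 3 later protected arrays overlapped the 2 later diabetogenic arrays.

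The promoters of genes that were lower on day 3 (Slc2a2, G6pc2 and Hadh) and of 1 that was not (Ucn3) are shown to let their bases be compared. RefSeq promoter sequences (GRCm38.p6) matched 6 of the 9 genes, and Abcc8, Kcnj11 and Slc30a8 had none. Capitals mark TAAT on either strand, the core bound by homeodomain factors such as Pdx1, and CANNTG, the E-box core bound by factors such as Neurod1. No match of one overlaps the other. Each run covers the 250 bases before an annotated start, 5′ to 3′ on the strand of the gene. The first is at chr3:28697653-28697902 (plus strand), the second, the first of 2 G6pc2 starts, at chr2:69210823-69211072 (plus), the third at chr3:131272102-131272351 (minus) and the last at chr13:3945350-3945599 (minus).
Slc2a2: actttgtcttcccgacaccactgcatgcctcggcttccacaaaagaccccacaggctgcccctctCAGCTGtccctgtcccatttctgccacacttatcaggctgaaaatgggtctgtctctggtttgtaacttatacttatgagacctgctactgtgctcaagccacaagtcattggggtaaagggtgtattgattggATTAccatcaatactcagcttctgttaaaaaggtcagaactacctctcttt
G6pc2: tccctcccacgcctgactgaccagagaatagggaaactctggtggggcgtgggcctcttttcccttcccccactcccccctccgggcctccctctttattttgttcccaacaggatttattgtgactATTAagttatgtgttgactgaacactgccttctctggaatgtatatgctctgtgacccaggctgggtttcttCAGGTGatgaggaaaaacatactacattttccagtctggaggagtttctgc
Hadh: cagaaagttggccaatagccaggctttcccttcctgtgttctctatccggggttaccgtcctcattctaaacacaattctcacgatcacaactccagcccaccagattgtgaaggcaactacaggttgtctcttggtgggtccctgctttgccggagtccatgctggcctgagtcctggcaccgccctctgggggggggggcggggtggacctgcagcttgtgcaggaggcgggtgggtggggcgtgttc
Ucn3: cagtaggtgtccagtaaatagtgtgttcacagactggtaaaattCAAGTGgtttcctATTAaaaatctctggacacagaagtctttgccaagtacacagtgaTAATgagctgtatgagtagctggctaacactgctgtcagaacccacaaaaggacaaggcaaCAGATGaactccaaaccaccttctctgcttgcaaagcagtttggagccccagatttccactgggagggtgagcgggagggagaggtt
The windows of Slc2a2 and of the first G6pc2 start each held 1 TAAT and 1 CANNTG, that of Hadh neither, and that of Ucn3 had 2 of each. The second G6pc2 start, not printed, held 3 TAAT and 4 CANNTG. The window of Trpm5, not printed, held 1 TAAT and 0 CANNTG, and that of Glp1r 0 and 1. Among 32851 RefSeq promoter windows of the same length, 54.9% held a TAAT and 66.2% a CANNTG, so a single match is not rare. At least 3 TAAT were found in 17.3% of them and at least 4 CANNTG in 3.84%. A match is a description only.

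Abcc8 and Kcnj11 encode SUR1 and Kir6.2, the regulatory and pore subunits of the ATP-sensitive potassium channel, and are neighbours on mouse chromosome 7. In RefSeq they span chr7:46104523-46180039 and chr7:46097123-46100952. Abcc8 stood at 44.5 on day 3, 2.91 on day 4 and 5.80 on day 8 in diabetogenic islets, and at 57.5, 5.26, 8.88 and 4.26 on days 3, 4, 5 and 8 in protected islets, against 59.0 in untreated islets. On day 3 the diabetogenic array held 75.4% and the protected array 97.6% of the untreated intensity, and all 5 later arrays lay between 4.93% and 15.1%. The second Abcc8 probe set was dim on all arrays. The day 3 difference of Abcc8 was -0.21 ± 0.21 (SE, log2; limma adjusted p 0.724).

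Kcnj11 stood at 24.5 on day 3, 7.62 on day 4 and 16.2 on day 8 in diabetogenic islets, and at 22.8, 17.6, 8.83 and 20.7 on days 3, 4, 5 and 8 in protected islets, against 16.8 in untreated islets. On day 3 it was above untreated in both arms, at 146% (diabetogenic) and 135% (protected), and on day 8 it was at 96.7% and 123%. It was lowest on the diabetogenic array of day 4 (45.4%) and the protected array of day 5 (52.6%). The day 3 difference was 0.44 ± 0.18 (SE, log2; limma unadjusted p 0.0533, adjusted p 0.416). The second Kcnj11 probe set read between 1.33 and 7.77 on the 8 arrays, and whether the 2 subunits differ in their change was not tested.

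Trpm5 encodes a calcium-activated cation channel that adds to the depolarisation of the glucose-stimulated beta cell. It stood at 55.6 on day 3, 2.89 on day 4 and 1.74 on day 8 in diabetogenic islets, and at 58.9, 11.1, 16.8 and 15.2 on days 3, 4, 5 and 8 in protected islets, against 53.9 in untreated islets. Both day 3 arrays were at the untreated level (103% diabetogenic and 109% protected). Later, the 3 protected arrays kept between 20.5% and 31.2% of it, and the 2 diabetogenic arrays, at 2.89 and 1.74, lay below their array medians. The day 3 difference was 0.08 ± 0.17 (SE, log2; limma adjusted p 0.878). Its other probe sets did not read alike on day 3, with differences of -0.58 ± 0.25 and 0.41 ± 0.43 (SE, log2) and limma adjusted p of 0.467 and 0.760 in the fit of all probe sets.

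Ucn3 encodes urocortin 3, a peptide that mature mouse beta cells release with insulin and that acts on delta cells to restrain secretion. It stood at 49.2 on day 3, 1.31 on day 4 and 1 on day 8 in diabetogenic islets, and at 72.3, 1.69, 12.9 and 4.98 on days 3, 4, 5 and 8 in protected islets, against 58.2 in untreated islets. The day 3 arrays lay on either side of untreated, at 84.6% (diabetogenic) and 124% (protected). On day 4 both arms were below their array median, and on day 8 the diabetogenic array was. The day 3 difference was 0.04 ± 0.26 (SE, log2; limma adjusted p 0.967).

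Glp1r encodes the receptor for the incretin GLP-1, which amplifies secretion. It read 3.62, 4.03 and 4.2 on days 3, 4 and 8 in diabetogenic islets, and 3.02, 2.21, 3.34 and 2.28 on days 3, 4, 5 and 8 in protected islets, against 3.43 in untreated islets. These values are at about the array median, which lay between 3.14 and 3.96, so no level of Glp1r can be read from its only probe set here.

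**Figure D2:**
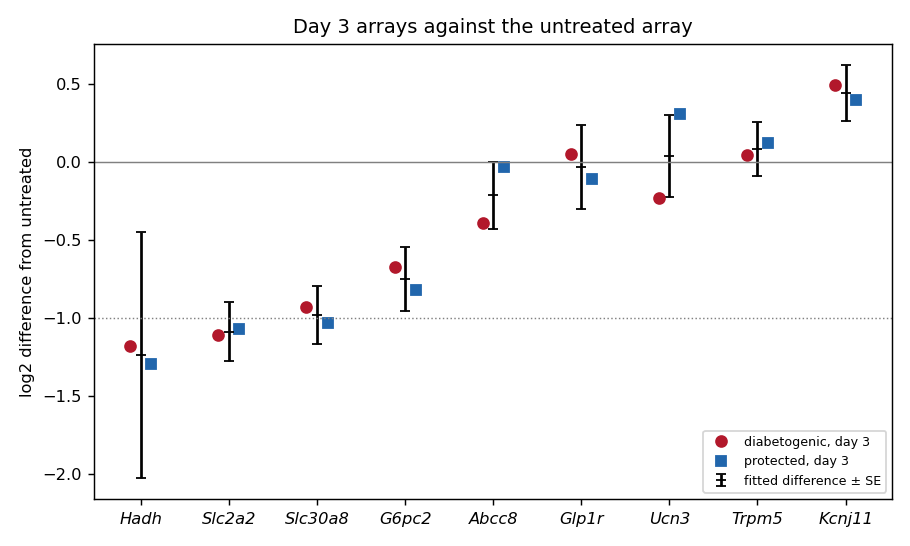
Log2 difference of each day 3 array from the untreated array for the 9 genes, with the fitted difference of both arrays together ± SE from limma (3 arrays). The dotted line marks a 2-fold lower value. Slc2a2 and Hadh lie past it on both arrays, Slc30a8 on 1 of the 2.

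On the day 3 arrays, 5 of the 9 genes (Slc2a2, Hadh, Slc30a8, G6pc2 and Abcc8) were below untreated in both arms, as were 41.7% of all genes tested and 71.4% of the 718 bright ones. The 2-fold mark was passed in both arms by 2 of the 9, against 0.464% of all genes and 1.11% of the bright ones, and no gene of the 9 was 2-fold higher in both arms, against 1.25% of all genes. The same 5 genes were below untreated on all 7 injected arrays, as were 16.8% of all genes and 59.1% of the bright ones. In the limma fit 0 of the 9 genes passed, with 3 lower and 0 higher at an unadjusted p under 0.05. Over all genes 0% passed as lower and 0.0122% as higher, and 6.88% were lower and 5.28% higher at an unadjusted p under 0.05. The spread in that fit is the difference between the arms on day 3, with 1 residual degree of freedom, and the lone untreated array is assumed to vary like them. To this limma adds the spread of other genes of like brightness, with a weight of 4.51 degrees of freedom. The SE and p are thus not those of the gene alone. Scaling each array to the untreated 99th percentile, an alternative chosen after seeing the data, left 1 gene past the 2-fold mark in both arms.

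The cell type markers show what else differed on day 3. Among the beta cell yardsticks, Ins2 (insulin) read 4471 on the diabetogenic and 4887 on the protected day 3 array, against 4277 on the untreated array. Iapp (the co-secreted amyloid peptide) read 769 and 919 against 505. Pdx1, a transcription factor that binds the insulin and Slc2a2 genes, read 47.6 and 42.9 against 77.5. Its second, dim probe set was not lower, at 4.18 and 2.78 against 2.78. The 3 other Iapp probe sets did not read alike, with 1669 (diabetogenic) and 1529 (protected) against 792 for 1, 380.4 and 529.8 against 439 for another, and 62.2 and 62.3 against 71.5 for the dimmest. Ins2 was thus above untreated on the arrays where Slc2a2, Hadh, Slc30a8, G6pc2 and Pdx1 were below it. Nkx6-1 was dim, and Ins1 and Mafa had no probe set with a single symbol. The leukocyte sum on day 3 was 188 (diabetogenic) and 241 (protected), against 46.0 (untreated).

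**Figure D3:**
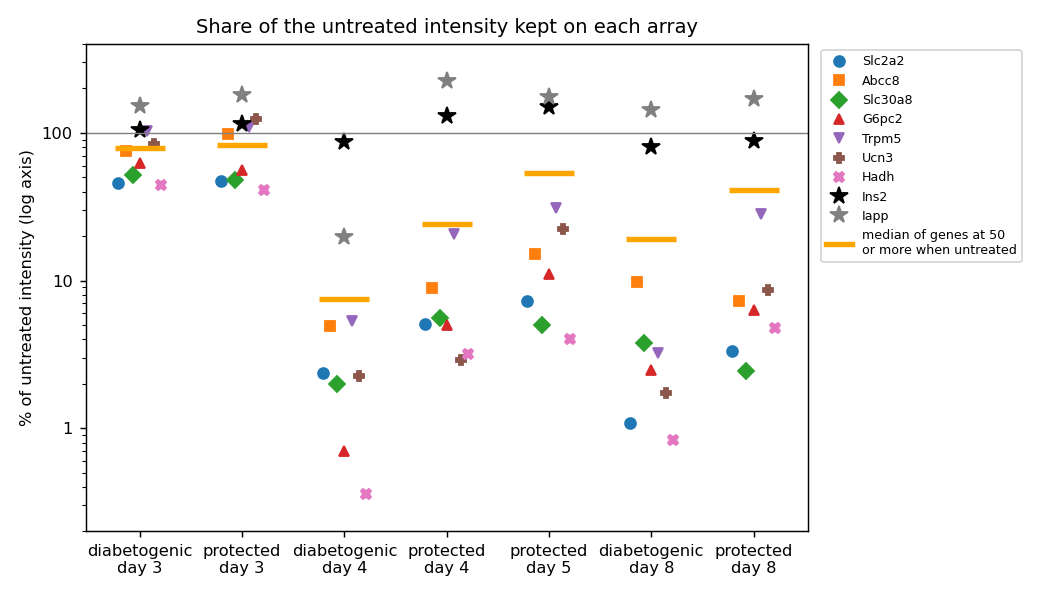
Intensity on each of the 7 injected arrays as a percent of the untreated intensity (log axis) for the 7 genes at 50 or more on the untreated array, with Ins2, Iapp and the median of the 718 genes of that brightness. On every later array Ins2 is above all 7 genes.

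The later arrays were dimmer for bright genes as a whole. The median bright gene held 79.1% of its untreated intensity on day 3, 7.56% on day 4 and 19.3% on day 8 in diabetogenic islets, and 83.3%, 24.0%, 53.4% and 41.0% on days 3, 4, 5 and 8 in protected islets. Against that, Hadh held 0.360% and 0.830% on days 4 and 8 in diabetogenic islets, and 3.17%, 4.00% and 4.80% on days 4, 5 and 8 in protected islets. Ins2 held between 79.7% and 149% on all 7 injected arrays. Iapp differed by probe set on the later arrays, with 1 probe set at 99.7 on the diabetogenic array of day 4 and between 725 and 1143 on the others, and another between 6.51 and 137 on all 5. Over all 8 arrays, 0 of the 9 genes passed in either arm against untreated in limma, nor did any gene tested (0%). The fitted differences of Slc2a2 were -3.76 ± 1.48 in the diabetogenic and -3.26 ± 1.43 in the protected arm (SE, log2; limma adjusted p 0.887 and 0.9998). At an unadjusted p under 0.05, 4 of the 9 genes were lower in the diabetogenic arm and 2 in the protected arm, against 2.13% and 1.26% of all genes. None was higher at that level, against 0.561% and 0.964% of all genes. Both comparisons share the untreated array. In the fit of the change per day over the 7 injected arrays, Slc2a2 had a slope of -0.58 ± 0.19 per day (SE, log2; limma adjusted p 0.502). There 5 of the 9 genes were lower and 0 higher at an unadjusted p under 0.05, against 4.53% and 4.54% of all genes, and 0 passed after adjustment.

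The arms were then compared on the days both were sampled, the question being whether IFN-γ neutralisation altered these genes. On day 3, 0 of the 9 genes differed by 2-fold as lower in diabetogenic islets, against 0.506% of all genes. On day 4 there were 4 (Hadh, G6pc2, Trpm5 and Kcnj11, against 14.2% of all genes and 69.1% of the 718 bright ones) and on day 8 again 4 (Hadh, Trpm5, Ucn3 and G6pc2, against 14.1% and 34.8%). The dimmer Kcnj11 probe set was higher in diabetogenic islets, by 0.31, 0.86 and 0.56 on days 3, 4 and 8 (log2). On day 4 it read 7.77 (diabetogenic) and 3.33 (protected). On day 4 the median difference of the 7 bright genes of the set was -0.99, against -1.45 over the 718 (log2). None of the 9 was 2-fold higher in diabetogenic islets on day 3, 4 or 8, against 1.4%, 6% and 9.39% of all genes. As a group of 3, G6pc2, Trpm5 and Hadh were at least 2-fold lower in diabetogenic islets on both later days, against 3.56% of all genes and 21.2% of the 718 bright ones. In diabetogenic islets G6pc2 on day 4, Trpm5 on days 4 and 8 and Ucn3 on day 8 were below the array median. The size of those gaps cannot be read. Lower by any amount on both of these days were 6 genes, Slc2a2, Kcnj11 and Ucn3 besides those 3, against 34.4% of all genes and 81.3% of the bright ones. Slc2a2, Trpm5 and Ucn3 were lower in diabetogenic islets on all 3 matched days, as were 20.1% of all genes. The day 4 directions depend on scale. With each array scaled to the untreated 99th percentile, the day 4 differences of Slc2a2, Abcc8, Kcnj11 and Ucn3 turned positive (0.24, 0.43, 0.17 and 0.63, log2), while those of Hadh (-1.69), G6pc2 (-1.11) and Trpm5 (-0.47) remained negative.

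Hadh had the widest gap of the 9 between the arms. Diabetogenic minus protected values were 0.12, -2.90 and -2.43 on days 3, 4 and 8 (log2), with a mean of -1.74 ± 0.86 over them (SE; limma with day as a block, adjusted p 0.564). Without the day 4 pair, whose diabetogenic array was the dimmest of all, the difference was -1.16 with a limma adjusted p of 0.00738 and 1 residual degree of freedom. The pairs left differed in sign (0.12 on day 3 and -2.43 on day 8). That p thus rests largely on the spread limma takes from other genes, and does not measure how the pairs disagree. Its dimmer probe sets gave 0.18 and 0.58 on day 4, when all 4 readings lay between 1.80 and 3.75, and -1.88 and -0.59 on day 8. Trpm5 differed by -0.08, -1.39 and -2.16 on days 3, 4 and 8, and by -1.21 ± 0.43 over them (SE; limma unadjusted p 0.00869, adjusted p 0.438). In that fit limma gives the spread of other genes a weight of 27.1 degrees of freedom, against 2 for the gene's own. The dimmer Trpm5 probe sets differed by -0.44 ± 0.36 and -0.22 ± 0.37 in the same fit of all probe sets (SE, log2). On days 3, 4 and 8 the first differed by -0.44, -0.65 and -0.23, and the second by -1.08, 0.39 and 0.01. Neither had the day 8 gap of the brightest probe set. G6pc2 differed by 0.15, -1.66 and -1.02 on days 3, 4 and 8, and by -0.84 ± 0.43 over them (SE; limma adjusted p 0.582).

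The remaining genes had smaller arm differences. Slc2a2 differed by -0.59 ± 0.40, Ucn3 by -0.62 ± 0.37 and Kcnj11 by -0.41 ± 0.43 over the matched days (SE, log2). Abcc8 (-0.20 ± 0.39) and Slc30a8 (-0.16 ± 0.40) lay within their SE of 0, and Glp1r, the only positive one, was at 0.39 ± 0.33. In all, 8 of the 9 fitted differences were negative, as were 56.8% of all genes. On the single days 3, 4 and 8, 61.3%, 95.3% and 85.2% of the 718 bright genes were lower in diabetogenic islets. In the fit 0 of the 9 passed (limma adjusted p between 0.438 and 0.934). At an unadjusted p under 0.05, 1 was lower (Trpm5) and 0 higher, against 5.82% and 3.09% of all genes. Over all genes 0.0915% passed as lower and 0.0122% as higher in diabetogenic islets. When arrays were centred on 4 beta cell markers instead, the differences of Slc2a2, Abcc8, Kcnj11 and Slc30a8 turned positive (0.03, 0.42, 0.21 and 0.46). Those of Hadh (-1.12), Trpm5 (-0.59), G6pc2 (-0.23) and Ucn3 (-0.0019) were smaller in size than without that centring (log2, none passing). Of these markers, Nkx6-1 read 1.58 to 5.91 on the 8 arrays. Pdx1 read 3.01 (diabetogenic) and 2.35 (protected) on day 4 and 1.33 on diabetogenic day 8, below the array medians. Its second probe set, not used for the centring, read 7.53, 5.36 and 18.0 on these 3 arrays, against 2.78 untreated. The Iapp probe sets did not read alike, so this centring is itself uncertain.

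**Figure D4:**
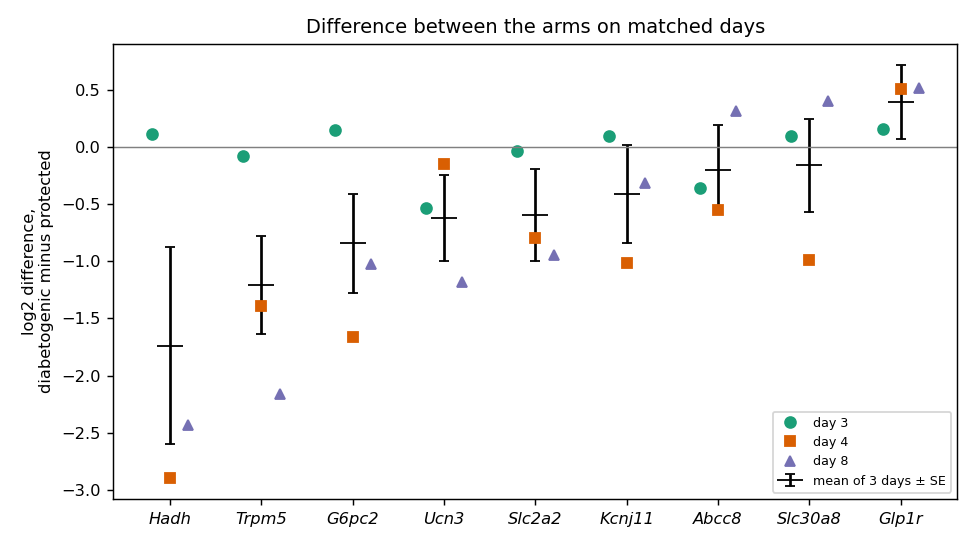
Diabetogenic minus protected log2 difference of the 9 genes on days 3, 4 and 8, with the mean over the 3 days ± SE from limma (6 arrays, day as a block). The day 3 points lie between -0.54 and 0.16, and Hadh is lowest on day 4 (-2.90) and day 8 (-2.43).

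Other genes of the pathway were counted from 10 lists of 123 genes, of which 106 were tested, and none passed on day 3 or between the arms. On day 3, 8 of the 10 glucose uptake and glycolysis genes tested had positive differences from untreated, with a median of 0.37 (log2) against -0.05 over all genes, of which 55% were negative. All 9 beta cell transcription factors tested were negative, with a median of -0.55, and 6 were lower at an unadjusted p under 0.05, against 6.88% of all genes. Of the 9, 5 were among the 718 bright genes, of which 71.4% were below untreated on both day 3 arrays. Of the 10 fatty acid oxidation partners of Hadh 7 were negative (median -0.05), of the 3 relatives of G6pc2 in the glucose-6-phosphate cycle 2 (median -0.27), and of the 17 mitochondrial and shuttle genes 8 (median 0). Negative differences were found in 10 of 16 ion channel and calcium genes (median -0.18), 8 of 11 receptors that modulate secretion (median -0.32), 9 of 11 exocytosis genes (median -0.18) and 4 of 8 zinc transporters and metallothioneins (median -0.02). Of 11 genes normally kept low in beta cells, 7 were positive (median 0.25). Some genes of these lists were dim, so their direction says little. Got1, whose 0 is the median of the shuttle list, read 1 on the untreated and both day 3 arrays. Pfkl (2.72) and Slc2a3 (3.03) were below the array median in untreated islets.

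A few genes from these lists were singled out after their values were seen. Slc2a1, the GLUT1 transporter used by most other cells, read 13.9, 28.2 and 27.9 on days 3, 4 and 8 in diabetogenic islets, and 13.95, 30.9, 47.6 and 35.0 on days 3, 4, 5 and 8 in protected islets, against 5.54 in untreated islets. All 7 injected arrays were above the untreated one, the opposite of Slc2a2. Ldha, the lactate dehydrogenase subunit that beta cells normally keep low, read 17.5, 7.63 and 1.47 on days 3, 4 and 8 in diabetogenic islets, and 24.7, 16.3, 20.8 and 9.15 on days 3, 4, 5 and 8 in protected islets, against 3.64 in untreated islets. Its diabetogenic day 8 array was thus below the untreated one and the other 6 above it. Their day 3 differences were 1.06 ± 0.21 for Slc2a1 and 1.99 ± 0.26 for Ldha (SE, log2; limma adjusted p 0.276 and 0.138). Hadhb, a subunit of the trifunctional protein in the same oxidation pathway as Hadh, read 55.5 and 50.3 on the diabetogenic and protected day 3 arrays, against 78.9 in untreated islets, a difference of -0.56 ± 0.18 (SE, log2; limma adjusted p 0.367). The leukocyte sum, as given above, was also higher than untreated on all 7 injected arrays. On diabetogenic day 4 it was mostly Csf1r (114 of 133), and Ptprc (2.74 against 5.42), Lyz2 and Cd74 were below untreated. The part of leukocytes in the values of Slc2a1 and Ldha was not tested.

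**Figure D5:**
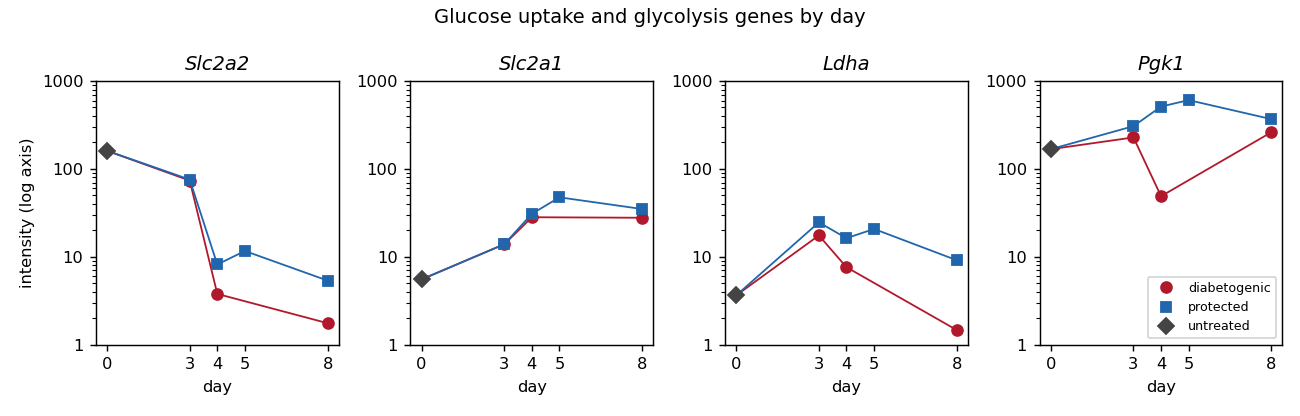
Intensity (log axis) by day of Slc2a2 and of Slc2a1, Ldha and Pgk1 (a glycolytic kinase), the last 3 chosen after their values were seen, in diabetogenic, protected and untreated islets, 1 array per point. Slc2a2 is below its untreated value on all 7 injected arrays and Slc2a1 above its own.

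The 9 genes were compared with their own mean profile over the 8 arrays. Abcc8, G6pc2, Slc30a8, Slc2a2, Ucn3 and Hadh correlated with it at Pearson r between 0.966 and 0.990, Trpm5 at 0.923, Kcnj11 at 0.594 and Glp1r at 0.0477, each gene being part of the mean. The 5 other genes most like that mean were Cog7, Glod4, Fndc3a, Scg3 and Gdap1, with r between 0.995 and 0.998 over 8 arrays. Scg3, secretogranin III of the secretory granule, read 224, 6.17 and 15.6 on days 3, 4 and 8 in diabetogenic islets, 232, 19.5, 33.3 and 20.6 on days 3, 4, 5 and 8 in protected islets, and 358 in untreated islets. These correlations share the brightness of the arrays, and 37.4% of the other bright genes had an r over 0.9, so a high r is common here.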

How the data were processed

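Expression was measured on 8 Affymetrix arrays of laser-captured islets. Per the labels' protocols, islets were cut from methanol-fixed, eosin-stained frozen sections and about 30 ng of RNA pooled from 5 mice was amplified per array. The values used are the authors' deposited probe set intensities on a linear scale. The authors' steps of summarisation and scaling were not given in the sources used here. Precision is limited by the number of arrays.

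Of 45101 probe sets, 34958 carry 1 gene symbol in the platform annotation, 932 several and 9211 none. Only the first kind was used, without 64 control probe sets, and a probe set was tested if it reached its array's median on at least 2 arrays. The brightest probe set stood for each of 16396 genes. All tests used log2(intensity + 2.155), with a pseudocount equal to the median of the 8 arrays' 25th percentiles. Array medians lay within 0.21 (log2), under the limit of 0.3, so nothing further was normalized.

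Differences were tested in R 4.3.3 with limma 3.58.1, by lmFit and then eBayes with trend = TRUE, and adjusted by Benjamini and Hochberg over all genes, with a threshold of 0.05. The fits were day 3 arrays against untreated (3 arrays), the arms over days 3, 4 and 8 with day as a block (6 arrays), each arm against untreated (8 arrays) and the change per day with arm as a term (7 arrays). Pools of mice give no spread between mice, so the spread is that between arrays of different days or arms. limma draws it, for each gene, towards that of genes of like brightness. The prior degrees of freedom were 4.51 to 27.1, against 1 to 5 residual ones. Single days were compared with no test, at 2-fold. Each fit was tested on simulated data. The labels give no replicate numbers, and day is the only block. Named are the 9 genes, the beta cell yardsticks Ins1, Ins2, Iapp, Pdx1, Mafa and Nkx6-1 (a further one is not reported here), list genes that passed on day 3 (none did) and the 5 genes most alike in profile. The genes and lists were chosen with earlier results of these data known. Alternatives changed the pseudocount, scaling, filter, probe set rule, block and arrays included.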

Additional observations from a re-analysis of the deposited data

Results flagged for a closer look

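Hadh on the protected arrays had its day 3 value (1167) far from those of days 4, 5 and 8 (90.7, 114 and 138): on the log2 scale the gap to the next array made up 0.839 of the range of the 4 arrays. The arrays are of different days, and chance gives such a gap in about 1 of 20 groups of 4.

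Glp1r differed from untreated with opposite signs in the arms, by 0.13 ± 0.46 in the diabetogenic and -0.21 ± 0.44 in the protected arm (SE, log2), the values being those of the fit and all at about the array median. The arm difference over matched days was tested and was 0.39 ± 0.33 (SE, log2; limma adjusted p 0.731).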

How the results depend on the processing

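The number of the 9 genes called was 0 in both directions in every fit and under every alternative run, with 1 exception between the arms. There, leaving out 1 day's pair gave 0 to 1 called lower (Hadh at -1.16 without the day 4 pair, limma adjusted p 0.00738, 1 residual degree of freedom). The pairs left for Hadh differed in sign (0.12 on day 3 and -2.43 on day 8), so that p rests largely on the spread of other genes. Fitting without the day block (no replicate block) called 0 as well. With 4 times the pseudocount, 1 gene was 2-fold lower in diabetogenic islets on day 4 and 2 on day 8, against 4 and 4. With 99th percentile scaling, chosen after seeing the data, it was 2 on day 4, and 1 gene was 2-fold below untreated on both day 3 arrays, against 2. Signs turned for some differences (log2). Between the arms on day 4, 99th percentile scaling turned Kcnj11 from -1.02 to 0.17 and Slc2a2 from -0.80 to 0.24, among others. In the fits, the largest difference to turn was that of Slc2a2 between the arms (-0.59). On day 3, Glp1r was 0.0156 with quantile normalization, 0.0154 with median centring and 0.0727 with beta cell marker centring, and Trpm5 was -0.0299 with probe sets averaged. Between the arms, beta cell marker centring gave 0.0257 for Slc2a2, 0.42 for Abcc8, 0.21 for Kcnj11 and 0.46 for Slc30a8, averaging probe sets gave 0.0821 for Kcnj11, and leaving out 1 pair gave -0.44 (without day 8) to 0.25 (without day 4) for Slc30a8. For the diabetogenic arm against untreated, Kcnj11 was 0.0776 (quantile), 0.90 (beta cell marker centring), 0.55 (probe sets averaged) and 0.22 (without day 4). For the protected arm, Kcnj11 was 0.0030 (4 times the pseudocount), 0.18, 0.40 and 0.28 in the same 3 settings and 0.24 without day 5, and Glp1r 0.21 with beta cell marker centring. Per day, Kcnj11 was 0.0509, 0.0683 and 0.0178 in those 3 settings and 0.0808 and 0.0393 without the diabetogenic or protected day 3 array, and Glp1r 0.0716 with beta cell marker centring and 0.0065 and 0.0251 without the protected array of day 3 or 8. The causes were not tested. The counts over all genes moved more. On day 3 they were 0 lower and 2 higher, against 32 and 175 with median centring and 7 and 107 with beta cell marker centring, and 0 to 14 higher in the other settings. Between the arms they were 15 lower and 2 higher, against 20 and 101 with beta cell marker centring, 61 and 10 without the day 3 pair, 22 and 13 without day 4, 20 and 24 without day 8, and 0 and 0 without the day block, with 1 to 16 lower and 0 to 4 higher otherwise. The protected arm against untreated gave 0 to 3 higher. The change per day gave 0 called, against 1 lower and 34 higher with beta cell marker centring and 1 and 5 without the diabetogenic day 4 array. Beta cell marker centring used 4 of 6 planned markers, with Nkx6-1 dim on all arrays and Pdx1 below the array median on both day 4 arrays and on diabetogenic day 8. With 1 pool per arm and day, dim probe sets near the array median and later arrays with other spiked control levels limit what can be read.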

Other observations

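Further genes of the counted lists, and markers of other cell types, were named after their values were seen. The metallothioneins Mt1 and Mt2, which bind zinc and copper, were dimmer in diabetogenic than in protected islets on day 3. Mt1 read 231 on the diabetogenic and 592 on the protected day 3 array, against 210 in untreated islets. Mt2 read 187 and 340 against 110. Galr1, a receptor for the neuropeptide galanin, which inhibits insulin secretion, read 6.78 on the diabetogenic and 7.96 on the protected day 3 array, against 17.9 in untreated islets, with a day 3 difference of -1.08 ± 0.23 (SE, log2; limma adjusted p 0.286). Foxa2, a transcription factor of the islet, read 37.6 and 32.6 against 71.4, a difference of -0.99 ± 0.18 (SE, log2; limma adjusted p 0.258). Stromal markers summed to 41.2, 61.6 and 316 on days 3, 4 and 8 in diabetogenic islets and to 56.4, 71.5, 285 and 671 on days 3, 4, 5 and 8 in protected islets, against 43.0 in untreated islets. The alpha cell hormone Gcg read 2205, 52.8 and 296 on days 3, 4 and 8 in diabetogenic islets, and 2390, 895, 1279 and 477 on days 3, 4, 5 and 8 in protected islets, against 1996 in untreated islets.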
